A study of Mus musculus with 6 samples.

Results

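The regions described here are distal stretches of open chromatin that were called as peaks after the transcription factor OTX2 had been depleted and not in its presence. They were selected on measured values, namely the peak calls of the authors. A region of the authors' deposited table was taken when it overlapped a peak of the dTAG13 list by at least 1 base, overlapped no peak of the DMSO list, and was annotated by the authors as distal intergenic or intronic. This gave 5460 of the 70494 regions in the table (7.75%), and 13.5% of its 40432 distal regions. Of these, 2870 were intergenic and 2590 intronic (47.4%). They made up 65.8% of the 8297 regions found in the dTAG13 list alone. They are called dTAG13-only distal regions below, for the list they occurred in, which does not mean that each was called higher in dTAG13. Because membership came from peak calls on the same libraries that gave the fold changes, fold changes and calls of the dTAG13-only distal regions are a description and were not tested.

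The cells were mouse definitive endoderm made in culture from epiblast stem cells. They came from 1 line, 7H OTX2-dTAG-EGFP, of BL6/129 hybrid background, in which OTX2 carries a degradation tag and EGFP. Every library, control libraries included, came from cells with the tagged OTX2, and none of the libraries used here came from untagged cells. All cells received 40 ng/ml Activin A and 3 uM CHIR for 16 h, followed by 24 h of 100 ng/ml Activin A and 100 nM LDN. From the primitive streak stage they were exposed for 24 h to dTAG13, which directs the tagged protein to degradation, or to its solvent DMSO. Live cells were sorted, and 50000 cells went into each of 3 ATAC-seq libraries per group. The 3 libraries of a group were described as technical replicates, so the spread behind the deposited standard errors (SE) may be technical and need not hold the spread between cultures. The table gives 1 mean over the 6 libraries and 1 fold change per region. Values per library were not used here, and the depth per library is unknown. The loss of the OTX2 protein itself cannot be read from these data.

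ATAC-seq marks DNA that a transposase can reach, and a distal open region is often an enhancer, a regulatory element that acts on a promoter from a distance. OTX2 is a homeodomain factor of the epiblast, the anterior endoderm and the forebrain, and it binds the core GGATTA, which GSC and PITX factors bind as well. TEAD factors bind GGAATG and are the DNA-binding partners of YAP and TAZ, the effectors of the Hippo pathway. T-box factors such as brachyury and EOMES bind AGGTGTGA and act in the primitive streak, from which mesoderm and definitive endoderm arise.

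The following sequences are those of dTAG13-only distal regions that were called higher in dTAG13, as defined with the fold changes. They are from GRCm38.p6, the assembly of mm10, plus strand, 5′ to 3′. A consensus on the minus strand appears as its reverse complement. The 3 regions of highest mean signal among the 104 called ones of at most 300 bases with a TEAD consensus inside the region are shown first. Capitals mark the TEAD consensus, which occurs 2 times at Gm2109 and 1 time in each of the other regions.
Cst3, chr2:148878753-148878940: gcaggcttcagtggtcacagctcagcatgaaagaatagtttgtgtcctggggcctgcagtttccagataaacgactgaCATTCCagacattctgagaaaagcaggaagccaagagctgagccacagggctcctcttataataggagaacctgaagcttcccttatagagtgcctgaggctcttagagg
Gm2109, chr9:83657258-83657511: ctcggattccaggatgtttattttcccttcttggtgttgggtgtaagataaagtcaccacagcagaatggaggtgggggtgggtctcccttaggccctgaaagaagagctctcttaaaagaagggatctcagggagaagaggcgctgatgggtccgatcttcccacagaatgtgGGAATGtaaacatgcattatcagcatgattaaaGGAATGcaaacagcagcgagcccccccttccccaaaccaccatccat
Rubie, chr14:46583056-46583333: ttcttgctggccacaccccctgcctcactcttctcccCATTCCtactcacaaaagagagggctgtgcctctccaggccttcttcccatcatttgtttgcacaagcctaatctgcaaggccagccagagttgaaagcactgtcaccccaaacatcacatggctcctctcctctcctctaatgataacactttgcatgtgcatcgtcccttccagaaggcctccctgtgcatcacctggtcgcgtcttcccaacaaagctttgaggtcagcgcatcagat

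The T-box consensus was found inside 14 called regions of at most 300 bases. The 3 of highest mean signal follow, with that consensus in capitals. The region at 2310020H05Rik also holds 1 TEAD consensus, in lower case.
2310020H05Rik, chr13:99091974-99092224: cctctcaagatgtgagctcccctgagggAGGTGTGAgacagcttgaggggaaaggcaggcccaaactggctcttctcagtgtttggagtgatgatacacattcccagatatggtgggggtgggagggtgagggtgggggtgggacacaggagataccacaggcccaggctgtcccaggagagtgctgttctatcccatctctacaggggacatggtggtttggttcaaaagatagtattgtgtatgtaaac
Dusp1, chr17:26514838-26515039: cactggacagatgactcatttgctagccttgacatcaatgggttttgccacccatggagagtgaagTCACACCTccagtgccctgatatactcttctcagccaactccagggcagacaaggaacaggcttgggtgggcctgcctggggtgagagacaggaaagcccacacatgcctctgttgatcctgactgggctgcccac
BC034090, chr1:155248100-155248317: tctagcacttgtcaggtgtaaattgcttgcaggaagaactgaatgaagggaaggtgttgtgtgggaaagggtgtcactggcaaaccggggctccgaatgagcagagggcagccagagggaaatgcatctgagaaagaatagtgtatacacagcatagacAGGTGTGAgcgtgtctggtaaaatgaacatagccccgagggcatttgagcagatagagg

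Only 4 called regions of at most 300 bases held the OTX consensus. Both sequences below, those of highest mean signal, show it in capitals and also hold 1 TEAD consensus in lower case.
Gm13481, chr2:48468423-48468675: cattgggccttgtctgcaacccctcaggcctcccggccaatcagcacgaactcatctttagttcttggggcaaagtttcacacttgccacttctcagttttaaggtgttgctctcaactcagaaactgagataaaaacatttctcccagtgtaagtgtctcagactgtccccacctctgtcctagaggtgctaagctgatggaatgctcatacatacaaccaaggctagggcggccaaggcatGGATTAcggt
Gm13498, chr2:50835774-50835982: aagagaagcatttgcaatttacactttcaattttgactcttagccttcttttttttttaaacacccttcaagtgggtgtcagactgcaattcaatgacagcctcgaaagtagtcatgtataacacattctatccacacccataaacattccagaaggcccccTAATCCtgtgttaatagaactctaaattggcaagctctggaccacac

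The last 3 sequences belong to regions assigned to genes of the lists described further on. Actb encodes beta-actin, Il17rd a membrane inhibitor of FGF signalling and Cubn the endocytic receptor cubilin. Capitals mark every TEAD, T-box, OTX, FOXH1 (AATNCACA) or AP-1 (TGANTCA) consensus found. The region at Actb holds an AP-1 consensus, that at Il17rd an AP-1 and a FOXH1 consensus, and that at Cubn an AP-1 and a TEAD consensus.
Actb, chr5:142920804-142921012: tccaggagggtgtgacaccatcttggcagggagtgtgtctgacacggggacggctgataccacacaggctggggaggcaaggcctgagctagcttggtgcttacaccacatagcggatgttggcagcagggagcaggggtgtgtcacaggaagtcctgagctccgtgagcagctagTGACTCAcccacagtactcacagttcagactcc
Il17rd, chr14:27082024-27082182: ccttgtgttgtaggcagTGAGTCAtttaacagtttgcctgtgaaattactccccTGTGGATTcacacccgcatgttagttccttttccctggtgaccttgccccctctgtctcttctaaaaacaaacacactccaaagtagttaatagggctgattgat
Cubn, chr2:13372311-13372506: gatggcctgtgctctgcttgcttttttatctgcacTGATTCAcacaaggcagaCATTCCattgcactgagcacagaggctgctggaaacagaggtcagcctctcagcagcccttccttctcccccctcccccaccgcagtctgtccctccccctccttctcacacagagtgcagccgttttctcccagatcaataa

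Promoters were looked up for genes listed for definitive endoderm, the label of the cells, and for other cell types. Of 22 genes of definitive endoderm, 17 had a promoter region open in both lists, and Foxa3, Nepn, Pyy, Sox18 and Trh had none. Promoter regions of both lists were also present at 7 of 15 genes of the primitive streak, 11 of 24 of mesoderm, 9 of 16 of neural ectoderm, 8 of 16 of extraembryonic endoderm and 7 of 16 of the pluripotent epiblast. Promoters of genes listed for other cell types were thus open in both groups. An open promoter does not show that its gene is expressed, and no share over all genes is given here. These counts therefore do not show which cells were present. The part of other cell types in the results below was not tested. The DMSO list held 65089 peaks and the dTAG13 list 44391, a ratio of 1.47. Whether fewer cells with an open region or less opening per cell lies behind a weak signal cannot be told apart in bulk libraries.

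The dTAG13-only distal regions were short and weak. Their lengths had a median of 82 bases (quartiles 70 and 108, range 59 to 447), against 169 bases in the 14958 distal regions of both lists and 96 in the 20014 of the DMSO list alone. The mean normalized count in the authors' deposited table had a median of 4.32 (quartiles 3.38 and 5.76, highest 39.2), against 10.4 in distal regions of both lists and 4.04 in those of the DMSO list alone. The means and fold changes of the table imply a median of 2.28 normalized counts per library with DMSO and of 6.34 with dTAG13. The implied DMSO level was under 3 normalized counts per library, taken here as the floor below which a ratio is not well determined, in 3678 dTAG13-only distal regions (67.4%). Median GC content over the 200 bases around the midpoint was 50.5%, against 51.5% and 49.5% in the other 2 classes.

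The log2 fold changes of dTAG13-only distal regions, dTAG13 over DMSO in the authors' deposited table, had a median of 1.57 with quartiles of 1.05 and 2.26. The median SE in the same table was 0.97. Distal regions of both lists had a median of 0.09 and those of the DMSO list alone of -1.41, while the median over all regions of the authors' deposited table was -0.18. Fold changes ranged from -1.48 to 6.14 in the authors' deposited table. They were below 0 in 41 dTAG13-only distal regions (0.751%) and at least 1 in 4198 (76.9%). With the floor in place of smaller implied levels, the median became 0.96. The list a region was called in fixed most of this direction.

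An enriched region is one whose log2 fold change reaches 1 in dTAG13 while its adjusted p stays below 0.05. According to the authors' deposited table, calls were made for 451 of the 5460 dTAG13-only distal regions (8.30% of the 5436 with an adjusted p), all of them higher in dTAG13, beside 1.28% of all tested regions called higher by the same rule. None was called lower, beside 3.79% of all tested regions. Without the condition on the fold change the share of all tested regions was 1.47%, and the dTAG13-only distal regions called were the same 451. Nothing is read from this difference, since the peak lists that chose the regions rest on the same contrast. An unadjusted p under 0.05 was deposited for 1910 dTAG13-only distal regions (35.0%), beside 19.7% of all regions of the table. The share was 11.7% in distal regions of both lists and 29.6% in those of the DMSO list alone, whichever the direction. The 451 called regions comprised 237 intergenic and 214 intronic ones. Their median log2 fold change in the authors' deposited table was 3.10, their median mean normalized count 6.76 and their median length 143 bases. The implied DMSO level lay under the floor in 323 of them (71.6%), and with the floor their median log2 fold change became 1.86.

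**Figure D1:**
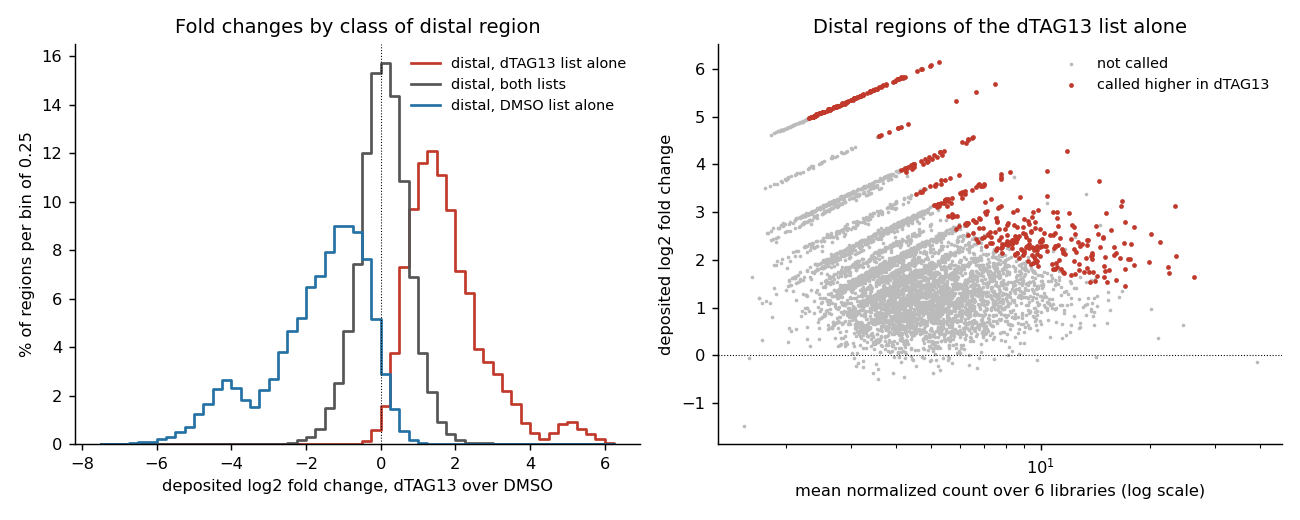
Left, distribution of the deposited log2 fold change (dTAG13 over DMSO, bins of 0.25, share of each class in %) for distal regions of the dTAG13 list alone (red), of both lists (grey) and of the DMSO list alone (blue). Right, each of the 5460 dTAG13-only distal regions by its mean normalized count over 6 libraries (log scale) and its log2 fold change, with the 451 called higher in red. The red distribution is centred at 1.57, the called regions at low counts have the highest fold changes, and the parallel bands at the upper left are regions with low implied DMSO levels.

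The rule has an edge where a DMSO peak lies close by. The smallest distance between a dTAG13-only distal region and a DMSO peak was 51 bases, and 87 dTAG13-only distal regions lay within 100 bases of one. Just inside the rule, these 87 had a median log2 fold change of 1.41 (range -0.36 to 4.14) in the authors' deposited table, and 3 were called. On the other side were 697 distal regions of both lists in which a DMSO peak covered under 50% of the region. Their median log2 fold change was 0.87 in the authors' deposited table, and 77 were called. The part called was thus larger just outside the rule than just inside it. Calls were made for 8.30% of all dTAG13-only distal regions and 1.31% of all distal regions of both lists. Over all tested regions the share was 1.28%. A DMSO peak lay within 1000 bases of 678 dTAG13-only distal regions (12.4%).

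The bases around the midpoints were described by 22 consensus sequences, each searched on both strands within 100 bases of the midpoint. The shares of regions that hold them were not used by the rule, but the rule chose regions by peaks called with and without OTX2. Wilson intervals at 95% cover counting error over regions alone, and the classes also differ in length, signal and GC content.

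The TEAD consensus GGAATG was present in 1080 of 5460 dTAG13-only distal regions (19.8%, interval 18.7 to 20.9%). It was present in 13.4% (12.9 to 13.9%) of distal regions of both lists, in 11.8% (11.3 to 12.2%) of those of the DMSO list alone and in 11.5% of all regions of the table. The interval of the dTAG13-only distal regions overlapped neither of the other distal classes. Among the 451 called regions 125 held it (27.7%, 23.8 to 32.0%). The 195 distal regions of both lists that were called higher in dTAG13 held it in 48 cases (24.6%, 19.1 to 31.1%), an interval that overlaps that of the called dTAG13-only ones. Outside the distal class, 12.9% (11.8 to 14.2%) of the regions of the dTAG13 list alone held it. At least 2 copies were found in 143 dTAG13-only distal regions (2.62%, 2.23 to 3.08%) and in 35 called ones (7.76%, 5.63 to 10.6%), against 1.02% (0.874 to 1.197%) of distal regions of both lists. The Gm2109 sequence above is such a case.

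TEAD sites were most frequent at the centre. In dTAG13-only distal regions the TEAD consensus fell within 50 bases of the midpoint in 12.2% (11.3 to 13.1%), at 50 to 100 bases in 9.07% and at 450 to 500 bases in 5.44%. In distal regions of both lists the same bins gave 7.07%, 7.15% and 5.29%, and in those of the DMSO list alone 5.82%, 6.62% and 5.24%. Beyond 100 bases the 3 classes were close to each other in most bins. Counted inside the region itself, whose length differs between classes, the order changed. TEAD sites then lay in 11.4% of dTAG13-only distal regions, in 12.9% of the longer distal regions of both lists and in 24.4% of the 451 called regions.

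In dTAG13-only distal regions the TEAD share went up with length and with fold change, and in each range of length it was higher than in the other distal classes. It was 17.5% (16.1 to 18.99%) in dTAG13-only distal regions of up to 80 bases, 21.3% in those of 81 to 150 bases and 23.8% in longer ones. Distal regions of both lists of the same lengths gave 10.3% (7.87 to 13.4%), 12.3% and 14.2%, and those of the DMSO list alone 11.3% (10.6 to 12.1%), 12.5% and 10.8%. Regions of both lists were thus above those of the DMSO list alone only in the longest range. By deposited log2 fold change the share in dTAG13-only distal regions was 15.3% (13.4 to 17.4%) below 1, 19.002% from 1 to 2, 23.5% from 2 to 3 and 24.9% (21.7 to 28.4%) from 3 on. These fold changes belong to the contrast that chose the regions, so this order is a description. Fold change and length were not separated, and called regions had a median length of 143 bases against 81 in those not called. By GC content the TEAD share was 16.7% (14.4 to 19.3%) under 45%, 20.1% from 45 to 55% and 21.2% above 55%. The corresponding shares in distal regions of both lists were 14.2% (12.6 to 15.8%), 13.9% and 11.995%, so that the intervals overlapped in the range of lowest GC content and not in the others.

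The T-box consensus AGGTGTGA was rarer. It occurred in 165 dTAG13-only distal regions (3.02%, 2.60 to 3.51%), in 2.45% (2.22 to 2.71%) of distal regions of both lists, in 1.75% (1.58 to 1.95%) of those of the DMSO list alone and in 1.71% of all regions. The intervals of the dTAG13-only distal regions and of the regions of both lists overlapped. Among called regions 22 held it (4.88%, 3.24 to 7.28%), an interval above that of all distal regions of both lists. The 195 called ones of both lists held it in 13 cases (6.67%, 3.94 to 11.1%), with an interval that overlaps that of the called dTAG13-only ones. It lay within 50 bases of the midpoint in 1.89% of dTAG13-only distal regions and at 450 to 500 bases in 0.49%. Inside the region itself the order was the opposite, with 1.79% in dTAG13-only distal regions against 2.57% in distal regions of both lists. In the range of lowest GC content it was also lower, at 1.98% against 2.29%. A TEAD and a T-box consensus occurred together in 31 dTAG13-only distal regions (0.57%, 0.40 to 0.80%) and 6 called ones.

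The rule left out every region with a DMSO peak, called with OTX2 present, while both other distal classes have such a peak. Shares of the OTX consensus are thus not independent of the rule and are a description. The OTX consensus GGATTA was scarce in dTAG13-only distal regions. It was found in 195 (3.57%, 3.11 to 4.10%), against 7.45% (7.04 to 7.88%) of distal regions of both lists, 16.5% (16.0 to 17.0%) of those of the DMSO list alone and 8.81% of all regions. Among called regions 5 held it (1.11%, 0.47 to 2.57%). The share was also low in the 195 called distal regions of both lists, with 4 (2.05%, 0.80 to 5.15%), and in the other regions of the dTAG13 list alone, with 90 of 2837 (3.17%, 2.59 to 3.88%), so that scarcity of this consensus was not limited to distal regions found in the dTAG13 list alone. Its reversed sequence ATTAGG, a control of the same base composition, was found in 6.25% (5.63 to 6.92%) of dTAG13-only distal regions and in 7.87%, 10.6% and 7.06% of the other classes in the same order. The ratio of dTAG13-only distal regions to distal regions of both lists was thus 0.48 for the consensus and 0.79 for the control. Both sequences hold the bases ATTA, so the control shares part of the consensus and is not a neutral background.

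The OTX consensus was least frequent next to the midpoint. In dTAG13-only distal regions it occurred in 1.70% (1.39 to 2.08%) within 50 bases, in 1.96% at 50 to 100 bases, in 2.93% at 100 to 150 bases and in 3.74% (3.26 to 4.27%) at 450 to 500 bases. Distal regions of both lists held it at 4.02% and 3.71% in the innermost and outermost of these bins, and those of the DMSO list alone at 10.2% and 4.04%. The control did not follow this course in dTAG13-only distal regions, with 2.93% and 2.97% in the innermost and outermost bins. It was not flat in every class, with 5.97% and 3.37% in distal regions of the DMSO list alone and 4.12% and 3.52% in those of both lists. At every range of GC content the OTX share was lower in dTAG13-only distal regions than in distal regions of both lists, with 6.16% against 10.5% under 45%, 3.41% against 8.03% from 45 to 55% and 1.89% against 4.84% above.

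**Figure D2:**
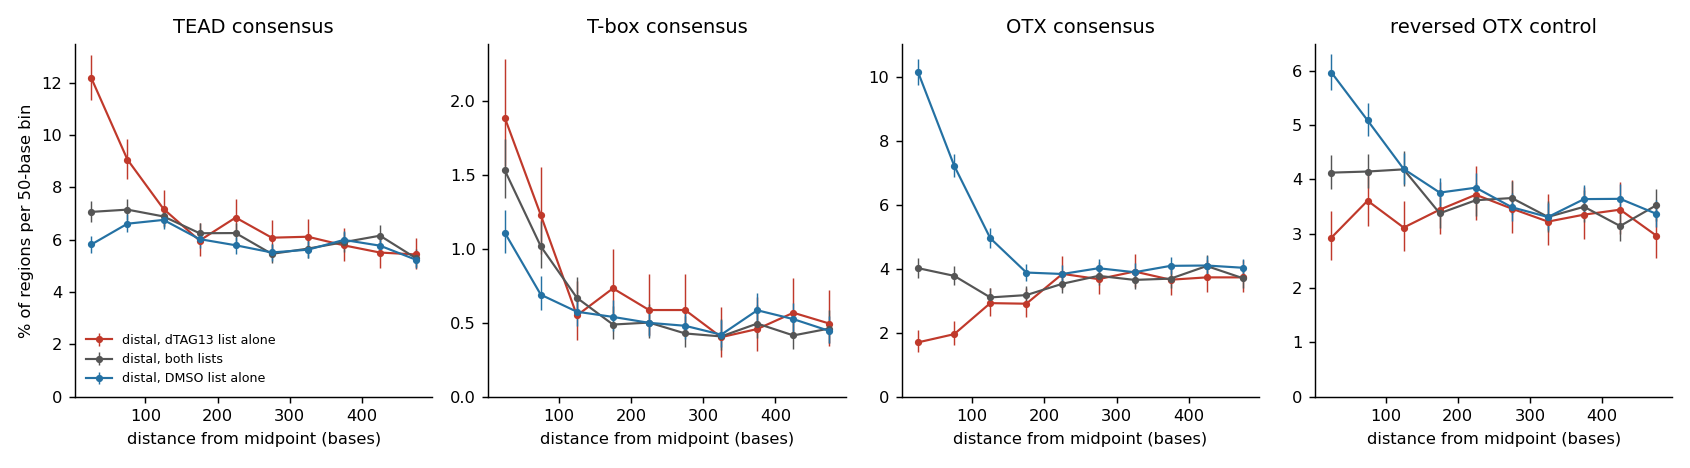
Share of regions (%) that hold the TEAD, T-box, OTX or reversed OTX consensus by distance from the midpoint (bases, bins of 50), for distal regions of the dTAG13 list alone (red), of both lists (grey) and of the DMSO list alone (blue). Bars are 95% Wilson intervals and each panel has its own axis from 0. In red, the TEAD share falls from 12.2% to 5.44% with distance while the OTX share climbs from 1.70% to 3.74%.

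The other consensus sequences had ratios between these. Those of TCF and LEF (CTTTGAT), the factors of WNT signalling, were found in 4.78% (4.25 to 5.38%) of dTAG13-only distal regions against 3.45% (3.17 to 3.75%) of distal regions of both lists, and of AP-1 in 8.46% (7.75 to 9.23%) against 7.15% (6.75 to 7.58%). All regions of the table held them at 2.83% and 6.04%. Called dTAG13-only distal regions held them at 6.65% and 9.98%. The 195 called distal regions of both lists held them at 10.3% and 9.23%, with intervals that overlap those of the called dTAG13-only ones. The FOXH1 consensus, that of a partner of SMAD proteins in NODAL signalling, occurred in 4.87% against 4.47% with overlapping intervals, and in 34 called regions (7.54%, 5.44 to 10.4% against 4.15 to 4.81%). The 195 called distal regions of both lists held it at 5.13% (2.81 to 9.18%), an interval that overlaps that of the called dTAG13-only ones. All regions held it at 3.37%. The FOX consensus TGTTTAC, bound by the endoderm factors FOXA1 and FOXA2, was in 5.93% of dTAG13-only distal regions against 7.26%, but in 9.31% (6.96 to 12.3%) of called ones, an interval that reached down to that of the regions of both lists. All regions held it at 5.33%. The consensus AGATAA of the GATA factors was in 18.1% of dTAG13-only distal regions against 20.5%, and ACAANG of the SOX factors in 34.7% against 39.3%. The E-box CAGGTG that SNAI factors bind was in 18.3% against 22.8%. The shortened CTCF consensus AGGNGGC was in 23.3% against 29.0%, and GGGCGG of the KLF and SP factors in 7.22% against 11.0%. In all regions these 5 stood at 15.6%, 34.8%, 21.3%, 29.5% and 23.5%. Of the 22 consensus sequences, TEAD had the highest ratio of dTAG13-only distal regions to distal regions of both lists, 1.48, and OTX the lowest, 0.48.

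**Figure D3:**
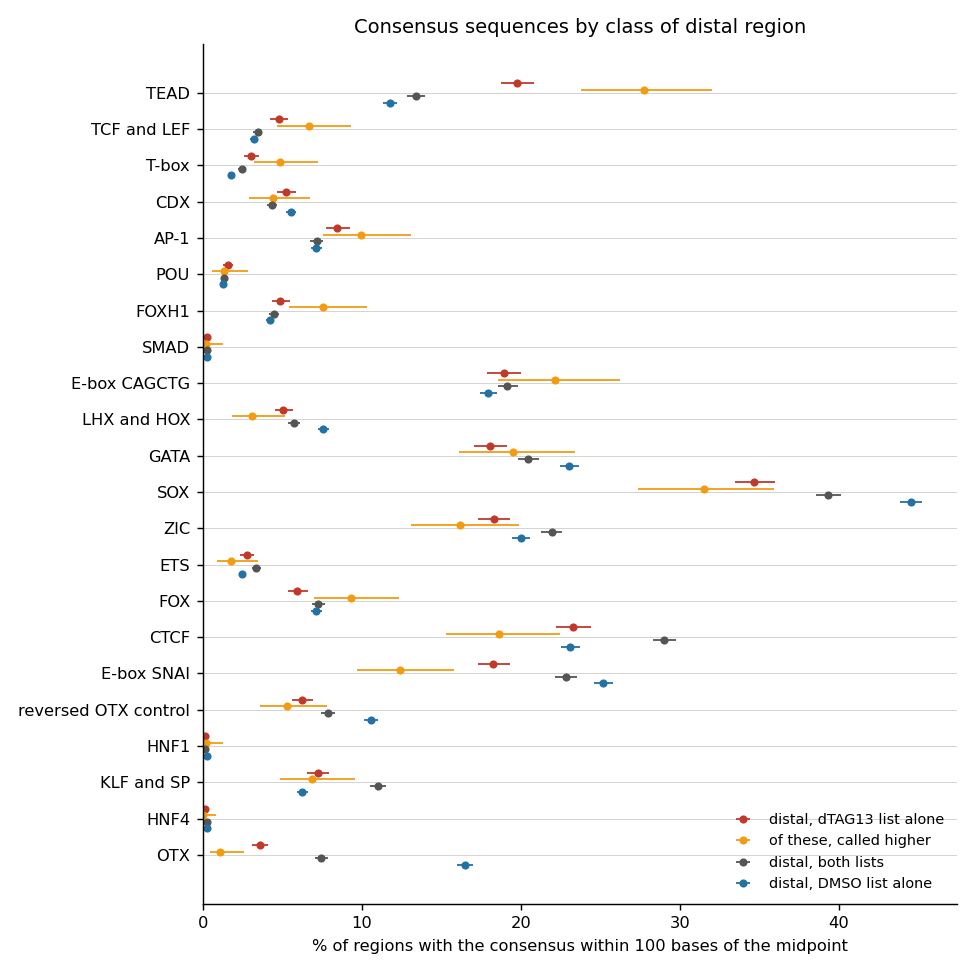
Share of regions (%) with each of the 22 consensus sequences within 100 bases of the midpoint, with 95% Wilson intervals, for distal regions of the dTAG13 list alone (red), the called ones among them (orange), and distal regions of both lists (grey) and of the DMSO list alone (blue). Rows are ordered by the ratio of red to grey, from TEAD (19.8% against 13.4%) to OTX (3.57% against 7.45%).

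The deposited table marks every region enriched in dTAG13 as C3 or C4, a division whose meaning is not given in the sources used here. Of the called dTAG13-only distal regions 183 were C3 and 268 C4. The TEAD consensus was in 32.2% (25.9 to 39.3%) of C3 and 24.6% (19.9 to 30.1%) of C4 regions, with overlapping intervals. GATA sites were in 11.5% (7.63 to 16.9%) of C3 and in 67 of the 268 C4 regions (20.2 to 30.5%), and CTCF sites in 27.9% (21.9 to 34.8%) and 12.3% (8.90 to 16.8%). FOX sites were in 5.46% (2.99 to 9.77%) and 11.9% (8.59 to 16.4%). The GATA and CTCF intervals of C3 and C4 did not overlap. Median GC content was 51.5% in C3 and 49.5% in C4, and both shares differed with GC content among all called regions. From the lowest to the highest GC range, GATA sites went from 32.0% to 9.41% and CTCF sites from 13.3% to 37.6%. The part of GC content in the difference between C3 and C4 was not tested. Median lengths were 156 bases in C3 and 132.5 in C4, median mean normalized counts 8.13 and 5.69 in the authors' deposited table, and the implied DMSO level was under the floor in 62.3% and 78.0%.

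Position in the genome set dTAG13-only distal regions apart from other distal regions little. The median distance to the nearest annotated start site was 15945 bases, against 14559 in distal regions of both lists and 16232.5 in those of the DMSO list alone. A start site lay within 1000 bases of 98 (1.79%) and within 3 kb of 220 (4.03%), although all were annotated as distal. Of the intronic ones 764 (29.5%) lay in a first intron, against 29.9% and 31.4%. Over 50% of the bases were soft-masked repeats in 488 (8.94%), against 6.81% and 9.89%. A region of both lists lay within 10000 bases of 31.8% (30.6 to 33.0%), against 32.1% (31.4 to 32.9%) and 28.0% (27.4 to 28.6%). The dTAG13-only distal regions made up between 10.6% (chromosome 11, 253 of 2384) and 16.4% (chromosome X, 133 of 813) of the distal regions of each chromosome other than Y, on which 5 of 12 were dTAG13-only.

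Most dTAG13-only distal regions stood alone. Only 546 had another within 10000 bases, and 3658 of 4436 assigned genes had exactly 1. The most, 7, were assigned to Trabd2b, which encodes a protease that inactivates WNT proteins. They spanned 209.1 kb (chr4:114322140-114531239) among 19 distal regions, and 1 in intron 2 of 6 (chr4:114531103-114531239) was called. Its log2 fold change was 4.47 (SE 1.21 and adjusted p 0.0116 by the authors' deposited table), with implied levels of 0.53 normalized counts with DMSO and 11.6 with dTAG13. The other 6 had log2 fold changes of 0.92 to 4.93 in the same table and were not called. The uncharacterized genes 1700123O21Rik and Gm26002 had 6 each. The 6 at Gm26002 lay within 89.6 kb (chr8:128519526-128609146), made up all but 1 of its 7 distal regions, and included 2 calls. One of them lay at chr8:128521318-128521412, with a log2 fold change of 3.49 (SE 1.13 and adjusted p 0.0424 by the authors' deposited table), and the other at chr8:128609067-128609146, with 5.09 (SE 1.60 and adjusted p 0.0364 by the authors' deposited table).

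A further 12 genes had 5 dTAG13-only distal regions each. Among them were Tle3, a corepressor of the Groucho family, Dact2, which modulates WNT and NODAL signalling, Cdh23, a cadherin of the inner ear, Dab1, an adaptor of reelin signalling, Greb1, an oestrogen-responsive gene, and Pde4d, a cyclic AMP phosphodiesterase. At Greb1 5 of 9 distal regions were dTAG13-only (55.6%) and at Dact2 5 of 11 (45.5%), without a call. At Dab1 5 of 22 were dTAG13-only (22.7%) with 1 call, and at Pde4d 5 of 33 (15.2%) with 1 call. Over all genes the share was 13.5%. The genes with the most dTAG13-only distal regions were picked for that number, so nothing is read from high shares among them.

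The largest fold changes rested on almost no signal with DMSO. The 10 called regions with the highest log2 fold change had values of 5.81 to 6.14 (SE 1.38 to 1.45) and mean normalized counts of 4.13 to 5.25 in the authors' deposited table. Implied DMSO levels were 0.14 to 0.15 normalized counts per library, so these fold changes depend on the fit and are no bound. The implied dTAG13 levels were 8.11 to 10.4, or 2.70 to 3.45 times the floor of 3.

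The first lay in intron 1 of 22 of Slc15a1, an intestinal peptide transporter (chr14:121492197-121492307), 217 bases from a start site of that gene. It held a TEAD consensus within 100 bases of the midpoint, as did the regions at Hipk2, a protein kinase, Ibtk, an inhibitor of Bruton's tyrosine kinase, Ikzf2, an Ikaros zinc finger factor, and Rock2, a kinase of the actin cytoskeleton. The Hipk2 region was in intron 2 of 14 (chr6:38771476-38771565), the Ibtk region was intergenic (chr9:85663258-85663357), as was the Ikzf2 region (chr1:69728107-69728178). The Rock2 region (chr12:16883323-16883478) lay 11494 bases from the start site of the gene and held TCF and LEF, GATA and SOX consensus sequences as well. The other 5 were assigned to Mir6356, RP24-390A22.1, Ndrg1, Gm24795 and Osbpl11 and held no TEAD consensus. None of the 10 held the OTX consensus.

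Among called regions, the 10 with the highest mean normalized counts had implied levels above the floor in both groups. They were 188 to 447 bases long, with mean normalized counts of 17.99 to 26.3 and log2 fold changes of 1.64 to 3.13 in the authors' deposited table. Implied levels were 4.79 to 12.8 normalized counts per library with DMSO and 28.3 to 41.9 with dTAG13.

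The region of smallest adjusted p among all dTAG13-only distal regions was assigned to Gm24063 and lay in an intergenic stretch (chr7:117842980-117843426), 66409 bases from the nearest start site and 34448 bases from the nearest DMSO peak. Its signal was 4.79 normalized counts with DMSO and 41.9 with dTAG13, as implied by a log2 fold change of 3.13 (SE 0.46 and adjusted p 1.08e-07 by the authors' deposited table). The highest mean was that of the region 3155 bases from the start of Cst3, the gene of the protease inhibitor cystatin C, whose sequence is given above. Its implied levels were 12.8 and 39.9, with a log2 fold change of 1.64 (SE 0.38 and adjusted p 0.00235 by the authors' deposited table), and a DMSO peak lay 390 bases away. At Gm11836 (chr4:14362343-14362726) implied levels were 8.93 and 38.0, and the nearest DMSO peak was 156455 bases away. The log2 fold change there was 2.09 (SE 0.41 and adjusted p 0.000198 by the authors' deposited table). The Gm2109 region with 2 TEAD sites had implied levels of 9.71 and 35.0, with a log2 fold change of 1.85 (SE 0.41 and adjusted p 0.0014 by the authors' deposited table). The remaining regions of this kind were assigned to Snai1, Gm44863, Gm38025, Dupd1, Zfp825 and Gm22699. The region assigned to Zfp825 lay 152 bases from a start site of Gm47467.

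Genes of early development and of signalling were followed through 15 lists of 295 genes. Genes were taken as the authors assigned them, which is by proximity and does not show which gene a region acts on. Over all genes 5460 of 40432 distal regions (13.5%) were dTAG13-only, and 1.28% of all tested regions were called higher. At listed genes there were 100 dTAG13-only distal regions, and 9 were called. This is close to the 8.30% called among all dTAG13-only distal regions with an adjusted p.

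The primitive streak and mesendoderm list had 9 dTAG13-only among 30 distal regions (interval 16.7 to 47.9%), the highest share of the 15 lists, and the lower bound of its interval is above the 13.5% of all genes. The list was one of 15, and no test was made. The dTAG13-only distal regions lay at Mixl1, T (brachyury) and Wnt3a, with 2 each, and at Snai1, Fgf8 and Cdx1. Their median log2 fold change in the authors' deposited table was 1.69, beside 1.57 for all dTAG13-only distal regions, and 2 of them were called.

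One of these was at Snai1, a repressor of E-cadherin in cells that leave the epithelium. It lay 5362 bases from the start site (chr2:167543373-167543740), with implied levels of 10.4 normalized counts with DMSO and 34.5 with dTAG13. The log2 fold change was 1.73 (SE 0.42 and adjusted p 0.00353 by the authors' deposited table). The other was at Fgf8, a growth factor of the streak, 16795 bases from the start site (chr19:45725806-45725971). Implied levels were 2.63 and 12.5, and the log2 fold change of 2.25 (SE 0.75) came with an adjusted p next to the threshold, 0.0496, in the authors' deposited table.

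The regions at the other streak genes were weak and not called. At Mixl1, a homeobox gene of the streak, the regions lay 6558 and 10539 bases from the start site, and the authors' deposited table gives them 1.10 (SE 0.82) and 1.11 (SE 0.81) on the log2 scale. The regions assigned to T lay in introns of its upstream neighbour T2. The one in intron 10 of 10 of T2 (chr17:8421763-8421896), 12593 bases from the start site of T, had 2.17 (SE 0.999) and the one in intron 7 (chr17:8417067-8417134), 17322 bases away, had 0.90 (SE 1.87) in the authors' deposited table. At Wnt3a, a ligand that maintains the streak, the values in the authors' deposited table were 2.51 (SE 1.13) in intron 1 of 3 and 1.13 (SE 0.92) in the intergenic region. At Cdx1, a posterior homeobox gene, it was 1.69 (SE 0.997) in the authors' deposited table.

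Definitive endoderm genes had 3 dTAG13-only among 51 distal regions (5.88%, 2.02 to 15.9%), an interval that includes the share of all genes. Of the 51, 30 (58.8%) were in the DMSO list alone, beside 49.5% of distal regions over all genes and 59.3% at extraembryonic endoderm genes. The 3 were at Foxa1, a pioneer factor of endoderm, at the chemokine receptor gene Cxcr4 and at Krt8, a keratin of simple epithelia, and none was called. At Cxcr4 the region lay 77051 bases from the start site (chr1:128669283-128669404), with implied levels of 4.35 and 13.4. The log2 fold change was 1.62 (SE 0.63 and adjusted p 0.107 by the authors' deposited table). At Foxa1 it was 0.77 (SE 0.63) and at Krt8 0.97 (SE 0.87) in the authors' deposited table.

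The neural list had 8 dTAG13-only among 37 distal regions (21.6%, 11.4 to 37.2%), of which 4 were at Sox11, 2 at Pax3 and 1 each at En2 and Nes. The called one at Sox11, a factor of neural progenitors, lay 30271 bases from the start site (chr12:27312201-27312404). Its implied levels were 5.37 and 17.7 normalized counts, and its log2 fold change 1.72 (SE 0.56 and adjusted p 0.0436 by the authors' deposited table). It held a TEAD consensus within 100 bases of the midpoint. A second dTAG13-only distal region lay close beside it (chr12:27312064-27312137), with 0.99 (SE 0.76) in the authors' deposited table.

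Mesoderm genes had 9 of 50 (interval 9.77 to 30.8%), at Mef2c, Meis2, Kdr, Isl1, Foxc1, Twist1 and Tbx20. The call was in intron 7 of 11 of Meis2, a homeobox gene of the TALE class (chr2:116010611-116010775), again with a TEAD consensus near the midpoint. Implied levels there were 1.88 with DMSO, under the floor, and 13.3 with dTAG13, 4.43 times the floor. The log2 fold change was 2.82 (SE 0.88 and adjusted p 0.0349 by the authors' deposited table). At Tbx20 the value was -0.16 (SE 0.75) in the authors' deposited table, 1 of the 41 below 0.

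Among genes of the pluripotent epiblast 5 of 28 distal regions were dTAG13-only (17.9%, 7.88 to 35.6%), at Nanog, Klf2, Esrrb, Lin28b and Pou3f1. The region 3599 bases from the start of Nanog, a factor of pluripotent cells, was 64 bases long (chr6:122703858-122703921). It was called with an adjusted p of 0.0488 next to the threshold and a log2 fold change of 3.90 (SE 1.29) in the authors' deposited table. Its implied DMSO level of 0.53 lay under the floor, and its implied dTAG13 level of 7.91 was 2.64 times the floor. It held the FOXH1 and the TCF and LEF consensus.

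Extraembryonic endoderm genes had 7 of 27 (25.9%, 13.2 to 44.7%), at Col4a1, Col4a2, Lamb1 and Sparc, which encode basement membrane and matrix proteins, and at Cubn. The called region was in intron 31 of 66 of Cubn, and its sequence is given above. Implied levels were 6.86 and 21.6, with a log2 fold change of 1.66 (SE 0.51 and adjusted p 0.0321 by the authors' deposited table), and a DMSO peak lay 598 bases away. The foregut list had 3 of 15 (interval 7.05 to 45.2%), at Onecut1, Nkx2-1 and Isl1. The posterior list had 6 of 57 (10.5%, 4.91 to 21.1%), with 2 at Meis2 and 1 each at Cdx1, Cyp26a1, Rarb and Sp8. At Cyp26a1, the gene of an enzyme that degrades retinoic acid, the log2 fold change was 2.17 (SE 0.73) in the authors' deposited table, with an adjusted p of 0.0521 just above the threshold.

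In the signalling lists the share of dTAG13-only distal regions was between 6.45% and 12.8%, with intervals that all included 13.5%. WNT genes had 14 of 125 (11.2%, 6.79 to 17.9%) and no call. By role these were the ligand genes Wnt3a and Wnt5a with 2 each and Wnt5b, the receptor genes Lrp5 with 2 and Fzd1, Lgr4 and Ror2, the inhibitor genes Sfrp1 with 2 and Notum, and Lef1, a nuclear effector. Their log2 fold changes ran from 0.41 at Lef1 to 3.20 (SE 1.47) at Fzd1 by the authors' deposited table. TGF-beta, NODAL and BMP genes had 10 of 78 (12.8%, 7.12 to 22.0%) and no call. They were at the receptor genes Tgfbr1 with 2 and Tgfbr2 with 3, the ligand gene Inhba, the BMP antagonist gene Nog with 3, and Smad7, an intracellular inhibitor. The smallest adjusted p among them was 0.075, at a region of 319 bases assigned to Tgfbr2 (chr9:116481595-116481913), with a log2 fold change of 1.63 (SE 0.58) in the authors' deposited table.

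FGF and ERK genes had 6 of 67 (8.96%, 4.17 to 18.2%), at the ligand genes Fgf8 and Fgf10, the receptor gene Fgfr2 and the inhibitor genes Spry2, Dusp4 and Il17rd. The call in intron 2 of 12 of Il17rd had implied levels of 2.32, under the floor, and 14.9, 4.97 times the floor. Its log2 fold change was 2.68 (SE 0.80 and adjusted p 0.0259 by the authors' deposited table). At Fgf10 the log2 fold change of 1.67 (SE 0.63) came with an adjusted p of 0.0922 by the authors' deposited table.

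Genes of the Hippo pathway had 4 of 62 (6.45%, 2.54 to 15.4%) and no call. They lay at Tead1, one of the TEAD factors, Vgll4, a cofactor that competes with YAP, Lats1, the kinase that inhibits YAP, and Amotl2, which retains YAP in the cytoplasm. In this order, the authors' deposited table gives log2 fold changes of 0.69 (SE 0.76), 1.60 (SE 1.03), 1.30 (SE 0.93) and 0.38 (SE 0.68). The list of AP-1 factors had 0 of 9 distal regions dTAG13-only, which allows up to 29.9%.

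Genes of the cytoskeleton, adhesion and matrix had 23 of 123 (18.7%, 12.8 to 26.5%) at 16 genes, with calls at Snai1 and Actb. The Actb region lay 14154 bases from the start site, with implied levels of 4.55 and 20.5. Its log2 fold change was 2.17 (SE 0.55 and adjusted p 0.00633 by the authors' deposited table). Those without a call included 3 regions each at Tns3, a tensin of focal adhesions, and Zeb2, a repressor of E-cadherin. The vinculin gene Vcl had 1, with 2.46 (SE 0.88 and adjusted p 0.0716 by the authors' deposited table).

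Genes of OTX2 and its partners had 7 of 49 (14.3%, 7.10 to 26.7%), of which 5 were assigned to Tle3 and 1 each to Ssbp2 and Ssbp3, cofactors in complexes of LIM-homeodomain proteins. The call assigned to Tle3 lay at chr9:61597403-61597573, 64073 bases away from a start site of Gm34424, the nearest one. Implied levels were 1.68, under the floor, and 11.6, 3.87 times the floor, and the log2 fold change was 2.79 (SE 0.88 and adjusted p 0.0361 by the authors' deposited table). The 5 regions at Tle3 spanned values from -0.06 to 2.79 in the authors' deposited table.

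**Figure D4:**
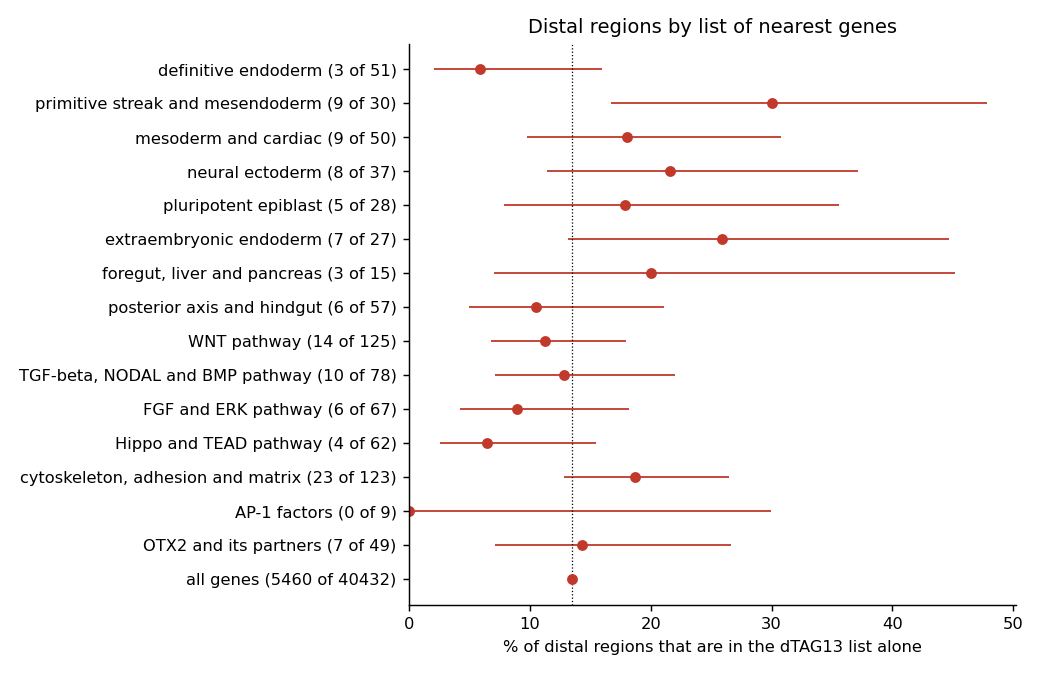
Share of the distal regions of each gene list (%) that are in the dTAG13 list alone, with 95% Wilson intervals and the counts beside each name. The dotted line marks the share over all genes, 13.5%. The interval of the primitive streak list (9 of 30) lies to the right of the line and the other 14 lists' intervals span it. Intervals count each region as independent, also where regions share a gene.

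**Figure D5:**
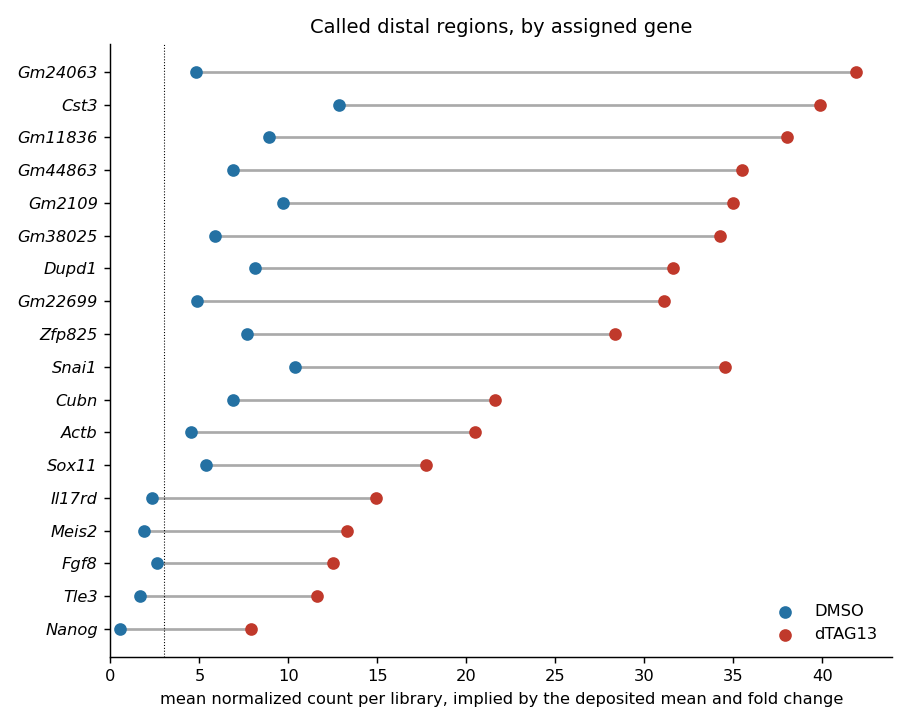
Mean normalized count per library implied by the deposited mean and fold change for DMSO (blue) and dTAG13 (red) in 18 called regions, namely the 10 of highest mean and the called regions at listed genes, by assigned gene. The dotted line is the floor of 3 normalized counts. The 10 regions of highest mean lie above the floor in both groups, while Il17rd, Meis2, Fgf8, Tle3 and Nanog have a DMSO level under it, and no error bar can be drawn because the table holds no value per library.

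The table also carries columns that mark genes as up or down, with no account of how the marks were made in the sources used here. Genes marked up held 167 dTAG13-only distal regions (3.06%, 2.63 to 3.55%), against 3.40% (3.12 to 3.70%) of distal regions of both lists, 2.76% of those of the DMSO list alone and 3.01% of all regions. Genes marked down held 109 (2.00%, 1.66 to 2.40%), against 2.62% (2.38 to 2.89%), 3.54% (3.29 to 3.80%) and 2.86%. Counted by region, the share at genes marked up overlapped that of both other distal classes. The share at genes marked down lay below that of the DMSO list alone. Of 4436 genes with a dTAG13-only distal region 116 were marked up (2.61%, 2.18 to 3.13%) and 86 down (1.94%, 1.57 to 2.39%). For genes with a distal region of both lists these shares were 2.19% and 2.12%. They were 2.01% and 2.02% (1.78 to 2.30%) for the DMSO list alone, and 1.60% and 1.38% over all genes. Counted per gene, the marked-down intervals of the dTAG13-only distal regions and of the DMSO list alone thus overlapped.

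Among the called regions 13 were at genes marked up (2.88%, 1.69 to 4.87%) and 6 at genes marked down (1.33%, 0.61 to 2.87%). In comparison, 16 of the 195 enriched distal regions of both lists (8.21%, 5.11 to 12.9%) were at genes marked up. Called regions at genes marked up were assigned to Frem2, a basement membrane protein gene, Ext1, which makes heparan sulfate chains, Osbpl11, Adamts18, Prkd1, Slc4a7, Arhgef26, 1700025G04Rik, Bicc1, an RNA-binding regulator of left-right patterning, Slco3a1, Dlc1, Bmper, a modulator of BMP signalling, and Fgf8. At Frem2 the region was in intron 2 (chr3:53590446-53590650), with implied levels of 4.25 and 22.6 and a log2 fold change of 2.41 (SE 0.55 and adjusted p 0.00188 by the authors' deposited table). At Ext1 it lay 139889 bases from the nearest start site (chr15:52967859-52968099), with implied levels of 5.96 and 26.3 and a log2 fold change of 2.14 (SE 0.50 and adjusted p 0.0024 by the authors' deposited table). Called regions at genes marked down were assigned to Ikzf2, Ndrg1, Dnm3, Vav3, Lhx1os and Cadps2, and in each of them the implied DMSO level lay under the floor.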

How the data were processed

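Accessibility was measured in 6 ATAC-seq libraries, 3 with DMSO and 3 with dTAG13. Per the submitters' processing notes, the tools were fastp, Bowtie2, MACS2, featureCounts, HOMER 4.11 and ChIPseeker, on build mm10. The MACS2 threshold, the read filters, the handling of duplicates and any shift of read ends are not given in the sources used here, and stricter settings would remove weak peaks first. Peaks were called on the libraries of a group together, per the file names. The signal per region in the authors' deposited table is a mean of normalized counts over all libraries, under the column names of DESeq2, per the file headers. Its log2 fold change (dTAG13 over DMSO), the standard error, the score (fold change over standard error) and the p-values were used as the authors deposited them. The deposited score and adjusted p-value were recomputed, with largest differences of 8.72e-07 and 7.87e-06 over all rows. The adjusted p-value is blank in 1366 of 70494 rows.

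From these values, the mean of each group was computed with equal weight for the groups, as 3 libraries each. Overlaps counted from 1 base. Sequences came from GRCm38.p6, and start sites from GENCODE mouse release 21, which holds 6363 of the 7579 transcripts named in the table (84.0%). Shares have Wilson intervals at 95%. No test was run, because the rule used the contrast itself, and no test of single libraries was possible. The 451 called regions are those of the deposited adjusted p under 0.05 with a log2 fold change of at least 1. The dTAG13-only distal regions, the 15 gene lists and the 22 consensus sequences were chosen with earlier results of these data known. The text names the 10 called regions with the largest fold change, the 10 with the highest mean, the best call at each listed gene, and the genes with the most regions (15 genes with at least 5, because of ties). Regions at listed genes without a call, and called regions at marked genes, were named after their values had been seen. Functions for overlaps, distances to peaks, motif search and p-value adjustment were tested on simulated data. The Wilson intervals were not part of these tests. The software was Python 3.11.15 with pysam 0.24.0, numpy 2.4.6, pandas 2.3.3, scipy 1.17.1 and, for figures, matplotlib 3.10.9.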

Additional observations from a re-analysis of the deposited data

How the results depend on the processing

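Of 39 values under alternative settings, 14 stayed and 25 moved. A count stayed if within 1.5 times the value reported, and a share or median if inside its 95% interval, a narrower tolerance. The number of dTAG13-only distal regions was 2870 with intergenic and 2590 with intronic ones alone. A stricter adjusted p of 0.01 left 116 calls. The median log2 fold change of the dTAG13-only distal regions was 1.45 at mean normalized counts of at least 5 and 1.75 with the median of all regions (-0.18) moved to 0, a setting that gave 621 calls. The TEAD share was 11.9% within 50 bases, 29.5% within 200 bases and 11.4% inside the region, and 16.7% at low and 21.2% at high GC content. The T-box share was 1.81%, 4.25%, 1.79%, 1.98% and 2.55% in the same order, and the OTX share 1.68%, 9.03%, 1.41%, 6.16% and 1.89%. Inside the region, the TEAD and T-box shares of dTAG13-only distal regions were below those of distal regions of both lists (12.9% and 2.57%), whose regions are longer. The T-box order also turned at low GC content (2.29% in both lists). The share at genes marked up was 2.61% counted per gene, 2.26% for intergenic and 3.94% for intronic regions, against 2.19%, 2.23% and 4.88% in both lists, so that the order of the main values (3.06% and 3.40%) turned in the first and second setting. A region of both lists was near 17.6% within 5 kb and 56.1% within 25 kb. Where settings other than window, class or threshold moved a value, the cause was not tested. Shares among dTAG13-only distal regions with no DMSO peak within 1000 bases, an alternative chosen after seeing the data, were 19.8% for TEAD, 3.01% for T-box and 3.47% for OTX. No paired analysis was possible because each region comes with a mean over all libraries and no value per library, and for the same reason no library could be left out. With a median of 4.32 normalized counts per region, small changes were not detectable at this depth.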
